A study of Mus musculus with 2 samples.

Results

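The early primitive erythroid cells of the host were taken from the tdTom- library of a chimera experiment and were chosen by their globin transcripts. A tdTom- cell was a member when *Hba-x*, *Hbb-bh1* and *Hbb-y* together made up at least 2% of its spliced UMIs (unique molecular identifiers, 1 per captured RNA molecule) and *Hbb-y* alone made up less than 0.5%. This gave 760 cells out of 9252 tdTom- cells and 18233 cells in all. The rule reads globin counts, so globin levels and anything that runs with them between the groups below describe the choice and are not findings.

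Mouse embryonic stem cells (a male clone carrying tdTomato) with a frameshift deletion of 38 bp in exon 4 of *Gata1* were injected into wildtype C57BL/6 blastocysts at E3.5. The embryos of 6 chimeras were pooled, dissociated and sorted. The tdTom+ fraction holds the progeny of the 1 edited clone (Gata1-), labelled E8.5, and the tdTom- fraction holds wildtype host cells from the same pool, labelled E8.6. Each fraction gave 1 droplet library, so genotype, strain, sex of the cells and library cannot be told apart in any comparison between fractions, and no p-value is given. All intervals below are 95% intervals (exact Poisson for a level, Clopper-Pearson for a share, exact conditional for a fold) and cover counting error only.

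Primitive erythroid cells arise in the blood islands of the yolk sac and enter the circulation as nucleated, dividing cells. They are known to make embryonic haemoglobin first from zeta globin (*Hba-x*) and beta-H1 globin (*Hbb-bh1*) and then, as they mature, increasingly from epsilon-y globin (*Hbb-y*) and the adult alpha globins. GATA1, a zinc-finger transcription factor encoded on chromosome X, is needed for this maturation and acts with KLF1, TAL1, LMO2 and FOG1 (*Zfpm1*) at the globin, haem and membrane genes, while GATA2, KIT, MYB and PU.1 (*Spi1*) mark less mature blood cells.

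3 groups were set beside the members. The later cells of the same library met the same globin minimum with *Hbb-y* at 0.5% or more (866 Hbb-y-positive cells). In the tdTom+ library 438 cells met the rule of the members unchanged. The remaining 7626 tdTom- cells stayed under the globin minimum, and 1796 of them with at least 3 of 10 neural markers served as a rough measure of free RNA. These cells may hold more than free RNA. Of them 139 (7.74%) were called droplets with more than 1 cell, and their summed share of the 3 rule genes reached 1.99%. The early cells held 15829964 spliced UMIs, with a lowest cell of 472, a median of 19286 and a highest of 67960. Medians were 19644 UMIs in the Hbb-y-positive and 21725 in the tdTom+ cells, and mitochondrial shares had medians of 3.02%, 3.04% and 2.89%. The libraries shared 18 cell barcodes, of which 1 belonged to a member. Levels of non-globin genes are given as spliced UMIs per 1000000 spliced UMIs without the 10 globin genes (CPM), because globins took 6.61% of the spliced UMIs of the early cells, 11.4% of those of Hbb-y-positive cells and 3.36% of those of the tdTom+ cells.

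*Hbb-y*, which set the upper limit of the rule, *Alas2*, the erythroid enzyme that starts haem synthesis, and *Hemgn* (hemogen, a nuclear protein of red cell precursors), which differed between the early and the tdTom+ cells described below by 2.15 and 5.04 on the log2 scale, have the following sequences from 250 to 61 bases before their transcription start (RefSeq, GRCm38.p6, written 5′ to 3′ on the strand of the gene). They lie at chr7:103853268-103853457 (minus strand), chrX:150547167-150547356 (plus strand) and chr4:46404244-46404433 (minus strand), outside the annotated exons. Capitals mark GATAA, the core that GATA factors read, and CACCC, the core of KLF1 motifs, on either strand (TTATC and GGGTG on the other).
Hbb-y: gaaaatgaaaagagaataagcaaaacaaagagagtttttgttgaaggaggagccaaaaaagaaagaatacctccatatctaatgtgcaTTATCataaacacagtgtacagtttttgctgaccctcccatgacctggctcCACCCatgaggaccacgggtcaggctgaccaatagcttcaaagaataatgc
Alas2: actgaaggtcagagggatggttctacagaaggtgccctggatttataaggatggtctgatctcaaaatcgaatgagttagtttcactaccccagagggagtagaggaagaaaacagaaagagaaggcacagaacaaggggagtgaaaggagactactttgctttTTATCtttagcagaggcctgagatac
Hemgn: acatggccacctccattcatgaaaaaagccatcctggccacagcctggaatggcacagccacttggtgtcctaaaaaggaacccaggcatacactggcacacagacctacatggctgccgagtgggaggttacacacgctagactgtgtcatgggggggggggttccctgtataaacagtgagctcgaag
*Hbb-y* held 1 match of each motif, *Alas2* 1 GATAA, and *Hemgn* neither in this window. Of 32851 windows of the same length, 18.7% held GATAA and 42.6% held CACCC on either strand, so a match is common and describes letters only.

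The labelled cell type was checked against its markers. *Gata1* stood at 134 CPM in the early cells (1978 UMIs, interval 128 to 140) and at 4.2 CPM in the other tdTom- cells. *F10*, coagulation factor X, stood at 77.5 against 4.1 CPM, and *Cited4*, a transcriptional co-activator partner, at 684 against 18.4 CPM. All 3 were above the tdTom- cells under the globin minimum with intervals apart. The Hbb-y-positive cells of the same library were not below the members in this way. The 3 markers summed to 895 CPM in the early and 1024 CPM in the Hbb-y-positive cells. *F10* was found in 65.8% of early and 56.5% of Hbb-y-positive cells, and *Cited4* in 98.4% and 99.7%. As a set the markers therefore describe erythroid cells and do not single out the early ones. *Hba-x* was found in 760 of 760 members and *Hbb-bh1* in 760, but both are genes of the rule and check nothing.

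Among 12493 genes with 100 or more UMIs, 514 (4.11%) were at least 2-fold higher in the early cells than in the other tdTom- cells with an interval that excluded 1, and 4385 (35.1%) were lower. Among the 10 with the highest folds were *Cldn13*, *Meiob*, *Ermap*, *Trim10*, *Asb17*, *Alas2*, *6030468B19Rik*, *Hemgn* and *Klf1*, from 126-fold for *Cldn13* (11.3 against 0.1 CPM) to 60.2-fold for *Klf1* (225 against 3.7 CPM). *Ermap* encodes a surface protein of red cells, and *Trim10* is a ring-finger protein of the erythroid lineage. Of the haem synthesis list 12 of 16 genes were called higher and 1 lower, and of the membrane and skeleton list 19 of 27 were called higher and 3 lower.

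**Figure D1:**
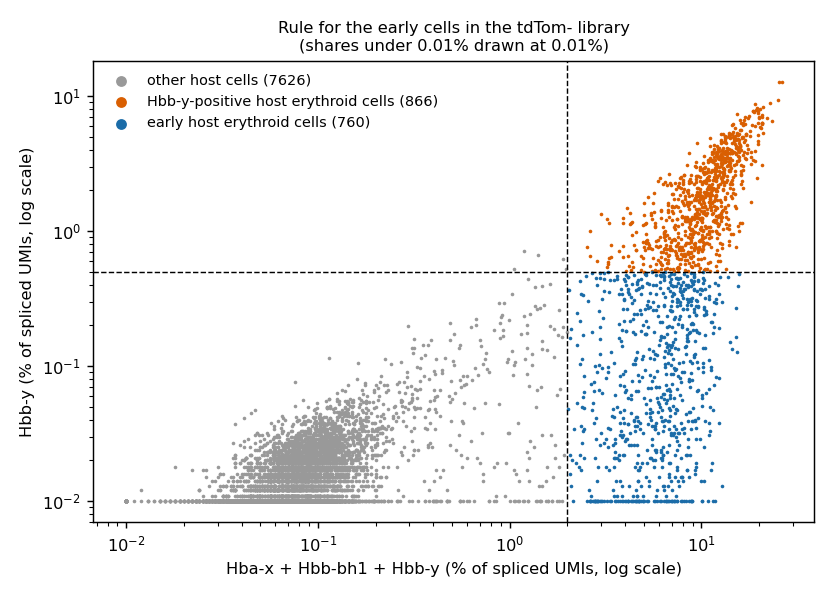
Each point is 1 of the 9252 tdTom- cells, with the summed share of *Hba-x*, *Hbb-bh1* and *Hbb-y* in its spliced UMIs on the x axis (percent, log scale) and the share of *Hbb-y* on the y axis (percent, log scale). Shares under 0.01% are drawn at 0.01%. Dashed lines are the limits of 2% and 0.5%. The 760 early cells (blue) span the whole range of *Hbb-y* below the limit and run into the 866 Hbb-y-positive cells (orange).

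The globins of the members were dominated by the embryonic pair. *Hba-x* took 3.87% of their spliced UMIs, and over cells its share ran from 0.123% through a median of 3.74% to 9.88%. *Hbb-bh1* took 2.18%, with a lowest cell of 0.424%, a median of 2.15% and a highest of 6.42%. The summed share of the 3 rule genes had a median of 6.14% (2.02% to 15.6%), beside 10.6% in Hbb-y-positive cells and 2.82% in the tdTom+ cells of the same gate. The tdTom+ cells therefore sat near the lower limit and the host cells well above it.

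*Hbb-y* was at 0.145% of all spliced UMIs of the members, with a median of 0.0717% over cells, and 740 of 760 cells had at least 1 UMI of it. The members filled the range below the limit. Of them 326 (42.9%) were under 0.05%, 101 lay between 0.05% and 0.1%, 109 between 0.1% and 0.2%, 73 between 0.2% and 0.3%, 79 between 0.3% and 0.4% and 72 between 0.4% and the limit. In the tdTom- cells with neural markers *Hbb-y* was at 0.0125%, so part of the lowest values is of the size found in cells that should lack the gene.

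The adult-type genes were present at low shares. *Hba-a1* took 0.274% and *Hba-a2* 0.0823% of the spliced UMIs, beside 0.439% and 0.139% in Hbb-y-positive cells. *Hbb-bs* and *Hbb-bt*, the adult beta globins, took 0.0457% and 0.0112%. In the cells with neural markers *Hbb-bs* was at 8.58e-04%. *Hbb-bs* was found in 551 of 760 members and, before any thinning for depth, in 9.97% of the cells with neural markers. The copies within each of these pairs are nearly identical, so the split of reads between them is uncertain. The tdTom+ cells of the same gate had 0.234% *Hba-a1* and 0.00226% *Hbb-bs*.

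Zeta globin outweighed beta-H1 globin in the host cells. The summed UMIs of *Hba-x* were 1.78 times those of *Hbb-bh1* in the early cells and 2.11 times in Hbb-y-positive cells, while in the tdTom+ cells they were 0.711 times. More *Hba-x* than *Hbb-bh1* was counted in 726 of 760 early cells (95.5%), in 863 of 866 Hbb-y-positive cells and in 118 of 438 tdTom+ cells (26.9%). Both genes belong to the rule, so the ratios describe the chosen cells and are not a finding. They count molecules from 3′ tags with no correction for capture. With both groups kept to a summed share between 2% and 4% and called doublets left out, 107 early and 361 tdTom+ cells remained, and the ratios were 1.27 and 0.638. The 107 early cells include 16 cells of a cardiac-led group described below, and without them the ratio was 1.19. The share of *Hba-x* in cells with neural markers differed as well, at 0.0512% in tdTom- and 0.0109% in tdTom+ cells. The part of free RNA in the ratio was not tested.

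**Figure D2:**
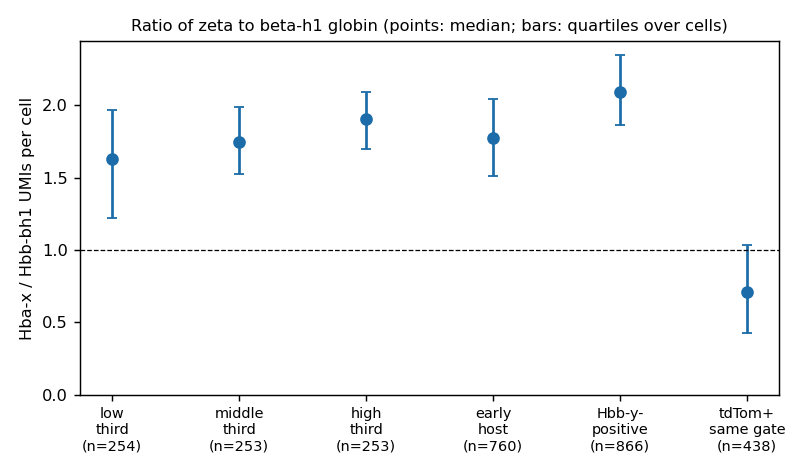
The ratio of *Hba-x* to *Hbb-bh1* UMIs per cell (y axis, linear) is drawn for the tertiles of the early cells by globin share, all early cells, Hbb-y-positive cells and tdTom+ cells of the same gate. Points are medians and bars the quartiles over cells. The medians of the host groups run from 1.63 in the low tertile to 2.10 in Hbb-y-positive cells, and that of the tdTom+ cells is 0.71. Both genes belong to the rule and their sum orders the tertiles, so the ratios describe the choice.

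The members did not form 1 even population. Without globin genes, Leiden clustering at a resolution of 0.5 gave 4 sub-clusters of 143, 216, 197 and 204 cells. Sub-cluster 0 was led by *Basp1*, *Mest*, *Vim*, *Ptn* and *Krt18*, genes of mesenchymal, neural and epithelial cells, and 125 of its 143 cells (87.4%) were called doublets (droplets with more than 1 cell) by Scrublet. Its cells had a median of 29932 UMIs. Its summed neural markers reached 123 CPM, cardiac markers 567 CPM and mesodermal markers 272 CPM, beside 4.2 to 6.1, 64.1 to 93.4 and 6.4 to 12.0 CPM in the other 3. *Gata1* was at 85.2 CPM there and at 145 to 162 CPM in the others. Of the 760 members 127 (16.7%) were called doublets, and results that move with these cells are given with and without them. When the other 633 members were clustered again, 1 of 7 sub-clusters held 18 cells led by *Actc1* and *Cdkn1c*. Cardiac markers summed to 2251 CPM in these cells and to 64.9 to 92.7 CPM in the other 6 sub-clusters. Other marker lists were high in them too, with endothelial markers at 506 CPM beside 32.9 to 63.1 CPM, mesodermal markers at 243 CPM and neural markers at 80.9 CPM beside 3.9 to 16.5 CPM. They are called the cardiac-led cells, and the main results they change are also given without them. They were picked as the sub-cluster with the highest cardiac sum, so lower cardiac markers without them follow from the choice. They were left out of the early cells only, and no such cells were looked for in the other groups.

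The other 3 sub-clusters differed in maturation genes, cell cycle genes and *Xist*, the RNA that silences an X chromosome in female cells. *Xist* was at 253 CPM (237 to 269) in sub-cluster 1, 147 CPM (134 to 160) in 2 and 181 CPM (167 to 196) in 3. The part of embryo and sex in the split was not tested. Sub-cluster 1, with a median globin share of 8.31%, was led by *Hemgn*, *Hist1h1b*, *Slc4a1* (band 3, the anion exchanger of the red cell membrane), *Hist1h4d* and *Hist1h1d*. *Slc4a1* was at 118 CPM in it against 52.5 CPM in the rest, and *Hemgn*, with 392 UMIs, at 99.98 against 39.9 CPM. Sub-cluster 2, with a median globin share of 4.67%, was led by *Gm15915*, *Tgfb1*, *Abcg1*, *Gamt* and *Rab27b*. It had the highest *F10* of the 4 at 117 CPM (106 to 128 in its interval), *Itga2b*, the integrin CD41 of early blood cells and platelets, at 61.7 CPM, and *Slc4a1* at 19.3 CPM. Sub-cluster 3 was led by *Rhox6*, *Cdkn1a*, *Slc25a21*, *Ikzf1* and *Zfp979* with a globin share of 6.80%. *Cdkn1a*, the p21 inhibitor of cyclin-dependent kinases, was at 41.8 CPM there against 20.6 CPM in the rest. At a resolution of 1 the number of sub-clusters was 10, and 1 of 76 cells was led by *Cdkn1a*, *Ccng1* and *Mdm2*, 3 known targets of p53. *Xist* ran from 50.6 to 354 CPM over these sub-clusters. *Rhox6* had 46 UMIs in sub-cluster 3, and at a resolution of 1 a sub-cluster of 44 cells held 46. Leading genes are part of the clustering and are given as a description.

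**Figure D3:**
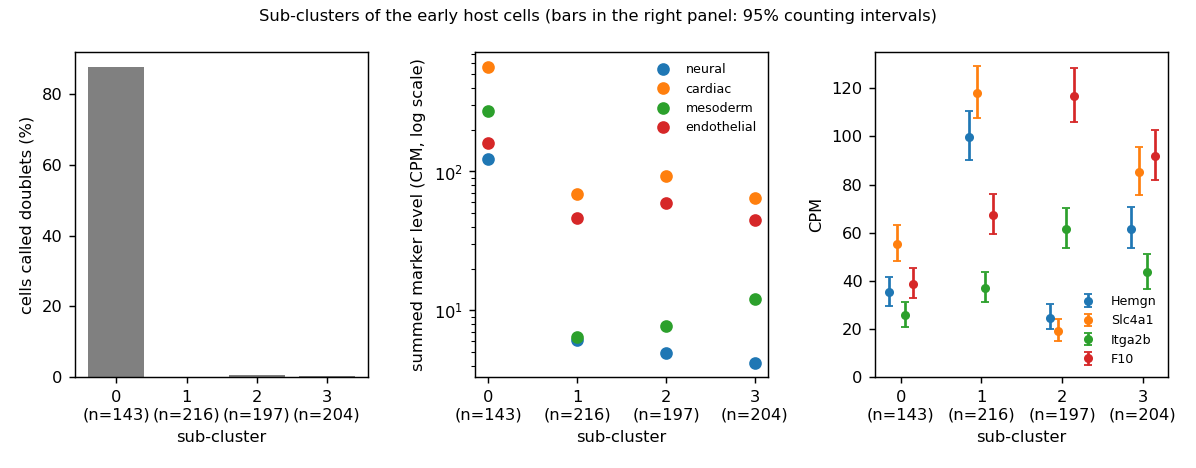
The x axis gives the 4 sub-clusters with their cell numbers. The left panel shows the percent of cells called doublets (bars from 0), the middle panel summed markers of other tissues in CPM (log scale), and the right panel 4 genes in CPM (linear) with 95% counting intervals. Sub-cluster 0 stands apart with 87.4% called cells, and *F10* and *Itga2b* are highest in sub-cluster 2 while *Hemgn* and *Slc4a1* are highest in sub-cluster 1.

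To follow the members from little to much globin, they were ordered by the share of *Hba-x* and *Hbb-bh1* and cut into tertiles of 254, 253 and 253 cells. Called doublets made up 37.0% of the low, 9.88% of the middle and 3.16% of the high tertile. With all members kept, 32 of 6409 genes (0.499%) were at least 2-fold higher in the high than in the low tertile and 433 (6.76%) were lower. Without the called cells, in tertiles of 211 cells, 22 of 5458 (0.403%) were higher and 108 (1.98%) lower. Without the 18 cardiac-led cells as well, 17 of which lay in the low tertile of all members, 19 of 5264 (0.361%) were higher and 38 (0.722%) lower. The values that follow are from these 633 cells.

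Several genes of the red cell membrane and of haem were higher toward the high tertile. *Slc4a1* stood at 18.6, 59.3 and 141 CPM in the low, middle and high tertile, and the outer ones differed by 2.93 on the log2 scale (2.56 to 3.31). *Hemgn* stood at 18.6, 56.1 and 109 CPM, with a difference of 2.56 (2.18 to 2.95). The intervals of the 3 levels did not overlap for either gene. *Hebp1*, a haem-binding protein, went from 82.7 to 270.2 CPM, *Slc25a37* (mitoferrin, which carries iron into mitochondria) from 208 to 519 CPM, and *Mgst3*, a glutathione transferase, from 216 to 677 CPM. *Alas2* stood at 141, 227 and 299 CPM and was the only 1 of 15 tested haem synthesis genes past 2-fold, while 12 of the 15 had an interval above 1, beside 9.6% of all 5458 genes, and the list had a median log2 fold of 0.66 beside -0.07 over all genes. In the membrane and skeleton list 4 of 20 genes were called higher (*Slc4a1*, *Rhd*, *Kel* and *Ermap*), beside 0.403% of all genes, and 0 lower. In it 18 had an interval above 1 and 1 an interval below 1 (9.6% and 21.3% of all genes). Without the cardiac-led cells 3 of 19 were called higher, beside 0.361% of all genes, and *Kel* was no longer called.

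*Gata1* stood at 145, 154 and 144 CPM, and the difference between the outer tertiles was -0.01 on the log2 scale (-0.18 to 0.17). *Klf1* went from 194 to 299 CPM and *Cited4* from 684 to 877 CPM. *Lmo2* was lower toward the high tertile, at 358, 262 and 230 CPM, and so was *F10*, at 113, 97.6 and 59.5 CPM. Of the 19 tested transcription factors of the list 0 were called, 7 had an interval above 1 and 3 an interval below 1, beside 9.6% and 21.3% of all genes.

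Of the progenitor list 3 genes were tested and 0 called, 2 of them with an interval below 1, and the 1 tested endothelial marker was not called. *Itga2b* stood at 59.0, 47.7 and 33.9 CPM and *Runx1*, a factor of blood stem and progenitor cells, at 35.5, 25.7 and 18.0 CPM. *Kit*, the receptor for stem cell factor, was counted with 64, 25 and 19 UMIs (17.5, 6.6 and 5.0 CPM), and *Etv2*, the factor that sets up blood and endothelial fate, with 72, 11 and 8 UMIs. *Kdr*, the VEGF receptor FLK1, had 64, 5 and 7 UMIs, and *Gm15915*, which is on neither list, 145, 24 and 5 UMIs. The last was called lower by a log2 fold of -4.90 (-6.55 to -3.65), and the others had too few UMIs for a call or lay under 2-fold. *Etv2* was found in 6.58% of all members and *Kit* in 15.9%, no more often than in the tdTom- cells with neural markers (9.13% and 17.7%) at median depths of 19286 and 16577 UMIs, and after thinning to 5000 UMIs in 1.63% and 3.52% beside 2.36% and 5.62%. In Hbb-y-positive cells the shares of *Etv2* and *Kit* were 4.97% and 9.01%, and 1.64% and 2.46% after thinning. Single cells with neural markers held up to 118 UMIs of *Etv2*, and single members up to 46, so these shares may hold more than free RNA. Whether the UMIs in the members are background was not tested.

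*Lin28a*, *Igf2bp2*, *Hmga2* and *Dnmt3b* were 4 of 8 tested genes of the embryonic list called lower toward the high tertile, beside 1.98% of all genes. *Hmga2* was at 41.8, 11.3 and 10.3 CPM and *Dnmt3b* at 43.9, 24.4 and 19.6 CPM. *Ccnd2* (cyclin D2) fell by 1.14 on the log2 scale, from 153 to 69.3 CPM, and *Cdkn1a* was higher, at 12.8, 23.6 and 42.9 CPM. Of the other cell cycle genes, 0 of 27 S phase genes and 1 of 31 G2/M genes (*Cdc25b*, 34.7 to 77.3 CPM) were called. All 5 tested cardiac markers were lower, beside 1.98% of all genes, with *Actc1* going from 87.9 to 8.7 CPM.

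Several of the lower values rested on the cardiac-led cells. Without them the remaining 615 cells were cut into tertiles again. *Actc1* was then at 10.2 CPM in the low and 8.7 CPM in the high tertile, *Etv2* had 20 and 8 UMIs and *Kdr* 17 and 7. Of the embryonic list 0 of 5 tested genes were called, with *Dnmt3b* at 35.0 and 19.7 CPM (-0.83), and *Hmga2* had 51 and 37 UMIs. *Ccnd2* was at -0.90 and no longer passed 2-fold. *Gm15915* (-4.98), *Slc4a1* (2.92), *Hemgn* (2.39) and *Cdkn1a* (2.00) were called as before. *F10*, at 121 against 59.6 CPM (-1.03), and *Runx1*, at 38.2 against 17.5 CPM (-1.13), were called lower in the high tertile.

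**Figure D4:**
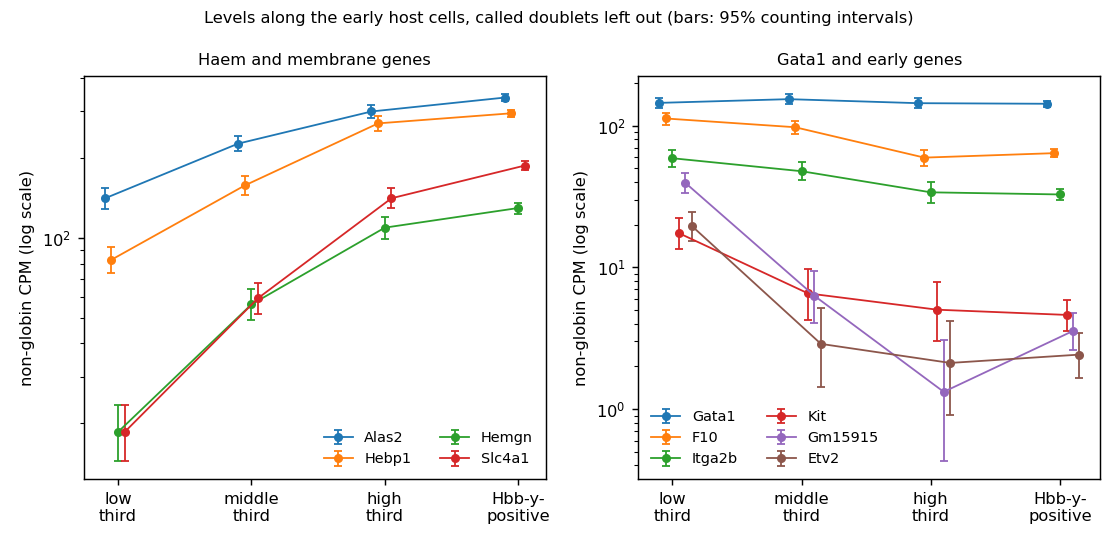
The x axis gives the low, middle and high tertile of the early cells and the Hbb-y-positive cells, all without called doublets, and the y axis the level in CPM (log scale) with 95% counting intervals. On the left *Hemgn* and *Slc4a1* start at 18.6 CPM and reach 130 and 187 CPM. On the right *Gata1* stays between 143 and 154 CPM, while *Gm15915*, *Etv2* and *Kit* are highest in the low tertile, which includes the cardiac-led cells. Without these cells *Etv2* has 20 UMIs in the low and 8 in the high tertile.

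The first comparison across the limit asks what separates the early from the Hbb-y-positive cells of the same pool of embryos beyond *Hbb-y*. The 2 groups differed in *Xist*, found in 52.9% of early cells (49.3% to 56.5%) and 63.9% of Hbb-y-positive cells (60.6% to 67.1%). Cells were not assigned to embryos, so stage cannot be told apart from embryo and sex here. Little passed a 2-fold difference. Of 8416 genes 43 (0.511%) were higher and 13 (0.154%) lower in the early cells. Without called doublets 44 of 7611 (0.578%) were higher and 11 (0.145%) lower, and without the cardiac-led cells as well 13 of 7527 (0.173%) were higher and 21 (0.279%) lower. Since these cells left the early group only, cardiac markers then summed to 75.9 CPM in the early and 181 CPM in the Hbb-y-positive cells, and *Tnnt2*, *Myl7*, *Myl4* and *Actc1* were 4 of the 21. At a fold of 1.5, with all cells, 300 (3.56%) were higher and 69 (0.82%) lower. The counts depend on the limits of the rule. A globin minimum of 5% gave 0 higher and 52 lower, and the other limits tried gave 23 to 116 higher. They moved as well with thinning, with the minimum of UMIs and with free RNA subtracted, as given at the end. Among the 10 with the highest folds in the early cells were *Lyve1*, *Gm15915*, *Npl*, *Fli1*, *Ecscr*, *Rab27b*, *Rhox5*, *Plvap* and *Nup62cl*. Without called doublets and cardiac-led cells *Rhox5* (-0.30), *Nup62cl* (-0.17) and *Lyve1* (-1.30) changed sign, each with under 100 UMIs. *Gm15915* was at 13.4 against 3.0 CPM, and without called doublets at 15.5 against 3.6 CPM. *Lyve1*, a hyaluronan receptor of endothelial cells, was at 9.0 against 0.2 CPM, and 33.8 CPM of it lay in sub-cluster 0 beside 0.0 to 0.3 CPM in the other 3. *Fli1*, *Ecscr* and *Plvap* are genes of endothelial cells as well. Of 6 tested endothelial markers 3 were called higher, beside 0.511% of all genes, with a median log2 fold of 1.01. The list summed to 79.1 CPM in the early and 44.4 CPM in the Hbb-y-positive cells. *Cdh5*, the cadherin that defines endothelium, had 30 UMIs in the early cells and *Emcn* 8. Without called doublets *Kdr* alone of 4 tested endothelial markers was called, and without the cardiac-led cells 0 of 3 were called.

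The 10 with the largest fall toward the early cells were *Apoa1*, *Aqp3*, *Acta1*, *Myh7*, *Slc4a1*, *Pyy*, *Cfap57*, *Pklr*, *Hemgn* and *Ddc*. *Slc4a1* was at 69.9 CPM in the early and 175 CPM in the Hbb-y-positive cells, and *Hemgn* at 55.8 and 123 CPM. *Pklr*, the pyruvate kinase of red cells and liver, was at 4.7 and 10.8 CPM and *Aqp3*, a water and glycerol channel, at 1.8 and 6.5 CPM. These 4 were also lower without called doublets, with *Slc4a1* at a log2 fold of -1.35 (-1.47 to -1.24) and *Hemgn* at -1.07 (-1.20 to -0.94). *Myh7* (0.021) and *Pyy* (3.04) lost the direction without the called cells, where both had under 100 UMIs. *Apoa1*, *Ttr* and *Rbp4* are made by yolk sac endoderm, whose markers summed to 17.5 CPM in the early and 44.4 CPM in the Hbb-y-positive cells. The fold of *Apoa1* turned positive at a globin minimum of 1% (1.23) and at an *Hbb-y* limit of 1% (1.65).

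Few genes of the lists passed 2-fold. Of 16 haem synthesis genes 0 were called, and 12 had an interval below 1 (median log2 fold -0.31), beside 8.40% of all genes tested. *Alas2* was at 203 against 311 CPM, or -0.62 on the log2 scale (-0.68 to -0.55). Of 26 membrane and skeleton genes 2 were called lower and 20 had an interval below 1 (median -0.37). In the progenitor list 8 of 10 had an interval above 1 (median 0.52), beside 20.1% of all genes, and *Kdr* was called. Without called doublets 3 of 8 were called (0.578% of all genes), *Kit*, *Etv2* and *Kdr*. Without the cardiac-led cells as well 0 of 6 were called and 5 had an interval above 1. The embryonic patterning list had 15 of 17 genes with an interval above 1 (median 0.54), and *Hoxa7*, *Hoxb4*, *Hoxb8*, *Cdx1*, *Cdx2*, *Cdx4* and *Igf2bp2* passed a fold of 1.5. Without called doublets 8 genes of it were tested and *Igf2bp2* was called, and without the cardiac-led cells 0 of 8 were called. S phase and G2/M genes had medians of 0.03 and -0.01. All genes tested had a median log2 fold of 0.05. *Gata1* was at 134 and 131 CPM in the early and Hbb-y-positive cells (0.03, -0.06 to 0.12).

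Cells just inside and just outside the limits were set side by side. The 72 members with *Hbb-y* from 0.4% to 0.5% had 63.8 CPM of *Hemgn* and 86.2 CPM of *Slc4a1*, and the 56 cells from 0.5% to 0.6% had 93.3 and 126 CPM. The intervals of *Slc4a1* did not overlap (71.9 to 103 against 106 to 149 CPM), and those of *Hemgn* did. *Gata1* was at 104 and 141 CPM, *Klf1* at 196 and 249 CPM and *F10* at 78.7 and 80.6 CPM. Called doublets made up 27.8% and 21.4%. Neural markers summed to 68.6 and 21.7 CPM and mesodermal markers to 84.2 and 108 CPM. The part of other cells in these gaps was not tested. The 82 members with a summed share from 2% to 3% had 103 CPM of *Gata1* and 41.5% called doublets. The 84 tdTom- cells from 1% to 2% with *Hbb-y* under 0.5% had 94.3 CPM and 28.6%. At any *Hbb-y* share, few tdTom- cells lay near the globin minimum. There were 73 at a summed share of 0.5% to 1%, 89 at 1% to 2% and 87 at 2% to 3%, beside 1839 at 0.1% to 0.5% and 741 at 5% to 10%.

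Cells of the tdTom+ library that passed the same gate differed from the early host cells far more. Of 8038 genes 522 (6.49%) were higher and 240 (2.99%) lower in the early host cells. Without called doublets 293 of 7484 (3.92%) were higher and 279 (3.73%) lower, and with both groups also kept to a summed share of 2% to 4% 204 of 6094 (3.35%) were higher and 187 (3.07%) lower. Without the cardiac-led cells as well, 260 of 7404 (3.51%) were higher and 311 (4.2%) lower, and at the matched share 138 of 5963 (2.31%) and 231 (3.87%). The cardiac-led cells were 16 of the 107 early cells at the matched share, where cardiac markers summed to 636 CPM with them and 121 CPM without them, beside 50.3 CPM in the tdTom+ cells. *Gata1* itself was at 134 CPM in the early host cells and, with 320 UMIs, at 34.0 CPM in the tdTom+ cells. The difference was 1.98 on the log2 scale (1.81 to 2.15). A UMI of *Gata1* was found in 2.34% of tdTom- and 1.87% of tdTom+ cells with neural markers, and its source there was not tested. After thinning every cell to 5000 UMIs, 46.3% of early cells (42.7% to 50.02%) and 14.9% of tdTom+ cells (11.7% to 18.6%) had a *Gata1* UMI, and before thinning 87.8% and 48.6%, with 22 and 2 cells under 5000 UMIs left out.

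The 10 genes with the highest folds were *Cdkn1c*, *Xist*, *Prss50*, *Nxpe2*, *Rhd*, *Cldn13*, *Hemgn*, *Dnaja4*, *Lyve1* and *Ank1*. *Lyve1* lay mostly in sub-cluster 0, and without called doublets and cardiac-led cells it had 1 UMI in the early and 3 in the tdTom+ cells (-1.86). *Cdkn1c*, the p57 inhibitor of cyclin-dependent kinases, had 1230 UMIs in the early cells and 0 in the tdTom+ cells, at least 261-fold higher when the 0 is set to 3 UMIs over the group. It was at 83.2 CPM with and 39.4 CPM without called doublets, which leaves it at least 118-fold higher. The 18 cardiac-led cells held 301 of the 444 UMIs left (696 CPM), and without them it was at 13.2 CPM, at least 39.4-fold higher. The tdTom- cells with neural markers held 185 CPM of *Cdkn1c* and those of the tdTom+ library 3.3 CPM, so the fractions differed in it outside the erythroid gate too. *Xist*, the RNA that silences an X chromosome in female cells, was at 217 against 1.0 CPM, and the injected clone is male. *Rhd* (34.1 against 0.8 CPM), *Ank1* (17.7 against 0.6 CPM) and *Cldn13* (11.3 CPM against 0 UMIs) encode a blood group protein, the anchor of the membrane skeleton and a claudin of red cells. *Hemgn* was at 55.8 against 1.7 CPM, with 825 and 16 UMIs. At matched share without doublets *Hemgn* (25 and 13 UMIs, log2 fold 3.03, 2.01 to 4.12), *Rhd* (30 and 5), *Ank1* (22 and 2) and *Cldn13* (12 and 0) had under 100 UMIs and could not be called. In cells with neural markers a UMI of *Hemgn* was found in 1.22% of tdTom- cells and in 0 of 1126 tdTom+ cells, which allows a share of up to 0.327%, and in 3.42% of the tdTom+ cells of the gate.

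At the other end stood *Dbx2*, *Pdyn*, *Slc32a1*, *Asic4*, *Gxylt2*, *Cpa3*, *Dtx1*, *Zfp990*, *Fezf2* and *Gata2*. *Slc32a1*, the vesicular GABA transporter, was at 1.2 CPM in the early host cells and 117 CPM in the tdTom+ cells, and *Pdyn*, prodynorphin, had 3 and 188 UMIs. *Cpa3*, a protease of mast cells and their precursors, had 0 UMIs in the early host cells and 150 in the tdTom+ cells, at least 78.5-fold lower. All 10 were also called lower without doublets. In cells with neural markers *Zfp990* was at 0.09 CPM in the tdTom- and 7.4 CPM in the tdTom+ library. The fractions therefore differed in it outside the erythroid gate too. *Slc32a1* was at 0.9 and 5.1 CPM in those cells and *Fezf2* at 6.4 and 3.9 CPM.

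The 12 tested genes of the progenitor list split into 6 lower and 6 higher in the early host cells (median log2 fold -0.30). Of all genes 2.99% were lower and 6.49% higher. *Gata2* was at 3.7 against 120 CPM (log2 fold -5.04, -5.46 to -4.65), *Myb* at 6.0 against 105 CPM (-4.14, -4.47 to -3.83), *Spi1* at 1.4 against 44.3 CPM (-4.96, -5.67 to -4.33), *Kit* at 9.6 against 79.2 CPM (-3.04, -3.31 to -2.78) and *Runx1* at 22.5 against 86.5 CPM. With *Lmo4* these were the 6 lower genes. *Etv2*, *Kdr*, *Tek*, *Itga2b*, *Meis1* and *Hoxa9* were called higher in the host cells. *Itga2b* was at 41.7 against 7.6 CPM. Without doublets and at a summed share of 2% to 4%, all 6 lower genes were called again and *Itga2b* was called higher of the 7 tested, with *Gata2* at 10.6 against 124 CPM (-3.55). Of all genes 3.07% were lower there and 3.35% higher. With the cardiac-led cells left out of this matched set, 5 of the 6 were called lower, *Runx1* (-0.98) was not, *Gata2* was at 9.1 against 124 CPM (-3.77) and *Itga2b* at 72.5 against 7.9 CPM. Of all genes 3.87% were lower in this set and 2.31% higher. Over the whole gate without doublets and cardiac-led cells, all 6 were lower and only *Itga2b* of the 7 tested was higher. There 4.2% of all genes were lower and 3.51% higher. In thinned cells *Gata2* was found in 1.08% of early host and 40.6% of tdTom+ cells, beside 0.393% and 1.96% of the cells with neural markers.

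**Figure D5:**
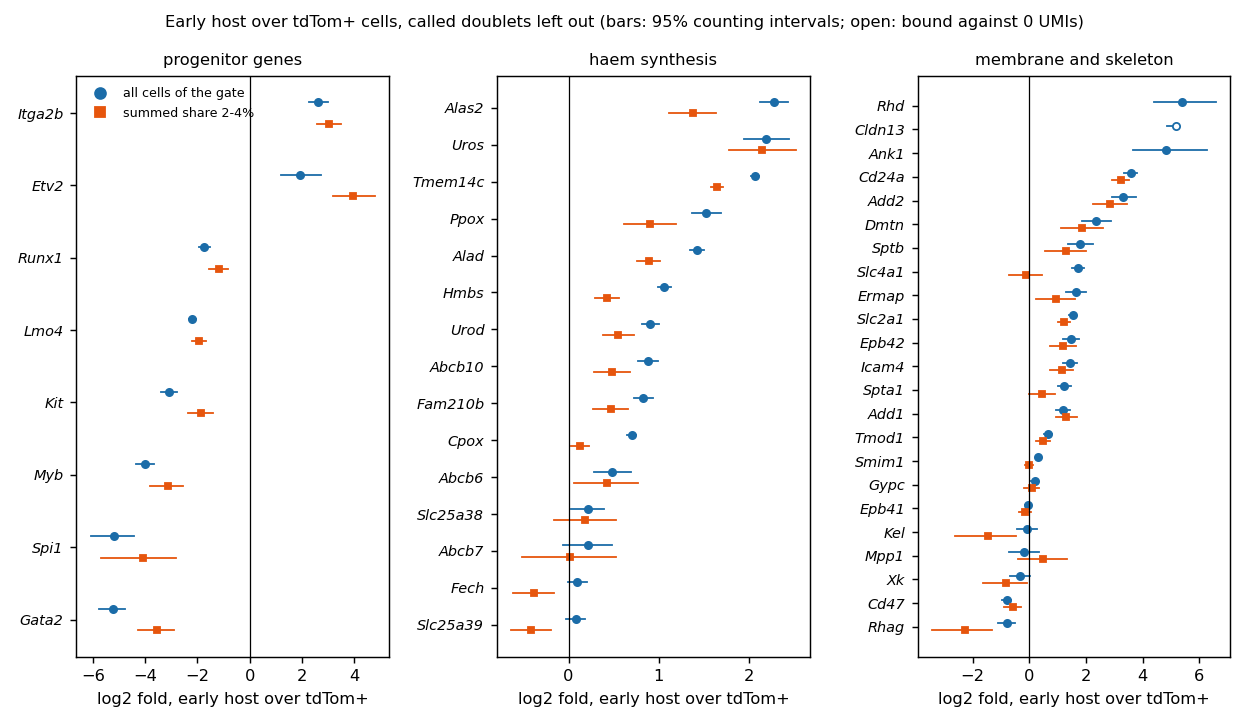
Log2 folds of early host over tdTom+ cells (x axis) for genes of 3 lists, without called doublets, with 95% counting intervals. Circles are all cells of the gate and squares cells of both fractions with a summed share of 2% to 4%. *Gata2*, *Spi1*, *Myb* and *Kit* are below 0 in both, *Alas2*, *Uros* and *Tmem14c* above 0 in both, and *Slc4a1* is at 1.72 over all cells and -0.12 at matched share. The squares include the 16 cardiac-led cells.

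Of 16 tested haem synthesis genes 5 were called higher in the host cells, beside 6.49% of all genes, and 0 lower, with a median log2 fold of 0.75 beside 0.03 over all genes. *Alas2* was at 203 against 45.7 CPM (2.15, 2.00 to 2.30), and *Alad*, *Uros*, *Ppox* and *Tmem14c*, which moves the haem precursor in mitochondria, were called with it. Without called doublets 6 of 15 were called (3.92% of all genes), with a median of 0.88. At a summed share of 2% to 4% without doublets *Alas2* (111 against 42.8 CPM), *Uros* and *Tmem14c* were called of 15 (3.35% of all genes), with a median of 0.47, and without the cardiac-led cells *Alad* and *Ppox* as well (2.31% of all genes), with a median of 0.59. *Fech*, the last enzyme of the path, had 138.9 against 139.5 CPM (-0.01). *Hebp1* was at 161 against 14.7 CPM and *Slc25a37* at 346 against 65.7 CPM, while *Fth1* and *Ftl1*, the ferritin chains, differed by 0.21 and -0.39.

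Of the membrane and skeleton list 15 of 24 genes were called higher, beside 6.49% of all genes, and 0 lower (median 1.29). *Add2* (beta adducin) was at 53.0 against 5.6 CPM and *Cd24a* at 229 against 23.4 CPM. Without doublets 15 of 24 were called as well, beside 3.92% of all genes. At the matched share 7 of 17 were higher, beside 3.35% of all genes, and *Rhag* and *Kel* were lower, with *Slc4a1* at 18.4 against 19.9 CPM (-0.12). Without the cardiac-led cells 6 of 16 were higher, beside 2.31% of all genes, and *Add2* was no longer called. The same 2 were lower, with *Slc4a1* at -0.08. For *Slc4a1*, with 33 and 152 UMIs, the interval at matched share ran from -0.71 to 0.44 and held 0.

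Of 21 tested transcription factors 2 were called higher, a share near the 6.49% of all genes, and 4 lower, beside 2.99%. Without called doublets and cardiac-led cells *Gata1*, *Klf1* and *Mllt3* were called higher and *Cbfa2t3* and *Sox6* lower. The values that follow are from all cells unless stated. *Gata1* and *Mllt3*, a chromatin reader, were called higher (192 against 31.3 CPM for *Mllt3*), and *Tal1*, *Cbfa2t3*, *Sox6* and *Cited2* lower. *Tal1* was at 166 against 339 CPM (-1.04), and at -0.93 without doublets it was not called. *Cbfa2t3* (ETO2, a corepressor that binds with TAL1) was at 55.5 against 155 CPM. *Sox6* had 13 UMIs against 182. *Klf1* was at 225 against 117 CPM (0.94) and passed 2-fold without doublets (1.09), but at matched share without doublets it was at 186 against 118 CPM (0.65, 0.47 to 0.84) and was not called. *Zfpm1*, *Lmo2* and *Gfi1b* differed by -0.10, 0.06 and 0.15. Of the cytokine receptors *Csf2rb*, the common beta chain, was at 106 against 19.2 CPM and *Stat5a* at 5.1 against 38.5 CPM, while *Epor*, the erythropoietin receptor, was at 81.8 against 58.5 CPM (0.48). Of 10 tested BCL2 family genes *Bid* alone was called, lower in the host, at 27.9 against 63.6 CPM (-1.19), and at matched share without doublets it was not (-0.92). *Mcl1* and *Bax* differed by 0.08 and 0.00. Without called doublets and cardiac-led cells 2 of 9 tested were called lower, *Bcl2l1* and *Bid*, beside 4.2% of all genes. S phase and G2/M lists had 1 of 27 and 2 of 31 genes called higher, *Ccne1*, *Ccna2* and *Cdc25b*, shares near the 6.49% of all genes.

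Markers of other cells moved with this comparison. All 5 tested cardiac markers were higher in the early host cells (205 against 66.5 CPM summed) and all 6 endothelial ones (79.1 against 22.7 CPM), and sub-cluster 0 held 87.4% called doublets. Of all genes 6.49% were called higher with all cells and 3.92% without called doublets. The share was 3.51% without the cardiac-led cells as well, and 3.35% at the matched share without called doublets. Without called cells the 5 cardiac markers were still higher (159 against 49.5 CPM summed), but without the 18 cardiac-led cells they summed to 75.9 CPM and *Tnni1* alone of 3 tested was higher, with *Actc1* at -0.23. At the matched share with these cells in, all 5 were higher, with a median log2 fold of 3.89 beside 1.66 over the whole gate. Both tested endothelial markers and all 4 tested megakaryocyte markers were higher with the cardiac-led cells left out too. Without called doublets 0 of 2 tested mesodermal genes were called, where 5 of 6 had been with all cells. Of the neural list no gene kept 100 UMIs. *Fermt3* and *Itga2b* led the megakaryocyte list, which summed to 150 against 27.6 CPM, while *Pf4* had 7 UMIs, *Gp9* 38 and *Ppbp* 0 in the early host cells. Myeloid markers summed to 4.9 against 82.9 CPM, with *Ptprc* and *C1qb* at 0 UMIs in the host cells. The part of endothelial, megakaryocyte and myeloid cells in the differences was not tested.

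MURK genes are 82 non-globin genes in these tables that the study had picked in an atlas of other embryos because their transcription seemed to jump during erythroid maturation. The study also required their mean spliced counts to be highest in its Erythroid3 population. A higher level in later cells is therefore part of how the list was picked. The genes were summed as a list. The early cells had 26080 CPM of them in spliced UMIs (25997 to 26162), the Hbb-y-positive cells 32244 CPM and the tdTom+ cells 17227 CPM, and the tertiles of all members 20224, 26648 and 32412 CPM. Of 81 tested genes 5 were called lower in the early than in the Hbb-y-positive cells (*Hemgn*, *Slc4a1*, *Pklr*, *Aqp3* and *Ddc*), 0 higher, and 68 had an interval below 1 (median -0.32), beside 0.154% of all genes called lower and 8.40% with an interval below 1. Against the tdTom+ cells 41 of 78 were called higher, beside 6.49% of all genes, and *Htatip2* lower (median 1.04). At matched share without doublets 19 of 62 were higher, beside 3.35% of all genes, and 2 lower (median 0.55). Without the cardiac-led cells as well 22 were higher, beside 2.31% of all genes, and 1 lower (median 0.67).

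Unspliced molecules are often read as recent transcription, but the study cautions that retained introns can give intronic sequence too. They made up 6.01% of the MURK molecules of the early cells (5.94% to 6.08%), 5.73% in Hbb-y-positive cells (5.67% to 5.79%) and 4.37% in tdTom+ cells (4.27% to 4.47%). *Slc25a21* alone held 7240 of the 24650 unspliced molecules in the early cells, and without it the shares were 4.33% (4.26% to 4.39%), 4.16% (4.11% to 4.22%) and 4.19% (4.10% to 4.29%). The intervals of the early and tdTom+ cells then overlapped. For all other non-globin genes the shares were 11.5%, 11.2% and 11.5%. The lower share in Hbb-y-positive cells went with more unspliced molecules per spliced total, 1960 against 1667 CPM. Gene by gene, 46 of 77 had a lower and 30 a higher unspliced share in Hbb-y-positive than in early cells, with a median difference of -0.0852 percentage points beside 0.0311 over 7641 genes, of which 51.5% had a higher share. The intervals were apart for 4, *Slc25a21*, *Fech*, *Mllt3* and *Ddc*, all lower in Hbb-y-positive cells, beside 0.720% of all genes apart and lower and 0.445% apart and higher. In tdTom+ against early cells 34 of 65 genes had a higher and 31 a lower share, with a median difference of 0.0509 points beside -0.0942 over 6652 genes. The intervals lay apart for 7 higher and 5 lower genes, beside 1.55% and 2.59% of all genes. *Smim1*, a small red cell membrane protein, had 22.7% unspliced in early and 22.6% in Hbb-y-positive cells. *Hba-x* had 0.206% and *Hbb-bh1* 0.115% unspliced in the early cells, beside 0.179% and 0.0943% in the Hbb-y-positive cells.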

How the data were processed

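The authors sequenced 2 droplet libraries, aligned reads to mm10 with Cell Ranger 3.0.2, called cells with emptyDrops, filtered them on quality and used velocyto to sort molecules into spliced and unspliced. The authors deposited these as whole UMI counts per cell and gene, with 0 values that were not whole, together with the percent of mitochondrial UMIs that they computed per cell. Quality metrics cover 18239 cells, 6 more than the count tables. The tables hold 9252 tdTom- and 8981 tdTom+ cells, in each fraction more than the study counts after its quality filter and cell type labels. The study identified doublet barcodes, and whether they were removed from the tables is not given in the sources used here.

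Members were chosen by the rule, and the members and gene lists were chosen with earlier results of these data known. Counts were summed over cells of a group and divided by non-globin spliced UMIs. A gene was called at a fold of at least 2, an interval that excludes 1 and 100 or more UMIs over both groups. With 1 library per fraction no test between samples was possible. Named genes are the rule genes and markers, 2 to 5 leading genes per list, the 10 called genes with the largest folds per direction and 5 leading genes per sub-cluster. Genes such as *Fth1*, *Smim1*, *Tal1*, *Zfpm1* and the genes with unspliced intervals apart were named with their values in view, and so were the comparisons without called doublets and at a matched globin share. Scrublet (in scanpy 1.11.5) called doublets in each library. Sub-clusters used 2000 variable genes, 20 components, 15 neighbours and Leiden (leidenalg 0.10.2, igraph 0.11.9). Python 3.11.15, numpy 2.4.6, scipy 1.17.1 and pandas 2.3.3 were used. On simulated counts for the comparison with Hbb-y-positive cells (8453 genes), 95.4% of intervals held the true fold and all changed genes of a log2 fold of 1.5 were called, with 0 calls among unchanged genes. In the comparison with other tdTom- cells (12486 genes) 22 unchanged genes were called. These counts were drawn from the Poisson model that the intervals assume, without variation between cells or libraries. They check the arithmetic and not how far such variation moves the calls. Spliced depth was 157174026 UMIs in tdTom- and 167940767 in tdTom+. Some named genes of the rule are not reported here, in the text or the plots, and they remain in the counts.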

Additional observations from a re-analysis of the deposited data

How the results depend on the processing

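No paired analysis was possible because each fraction is 1 library and no replicate numbers pair cells. Of 818 alternative values for named genes, 608 moved by less than their counting interval, 199 moved further and 11 changed sign. The sign changes were *Apoa1* in early against Hbb-y-positive cells with a globin minimum of 1% (1.23) or an *Hbb-y* limit of 1% (1.65), *Pyy* with the limit of 1% (3.63) or without called doublets (3.04), and *Myh7* without called doublets (0.021). With the cardiac-led cells left out of the early cells as well, *Lyve1* (-1.30), *Rhox5* (-0.30), *Nup62cl* (-0.17), *Pyy* (0.77) and 1 gene not named here (-0.88) changed sign against Hbb-y-positive cells, and *Lyve1* (-1.86) against tdTom+ cells.

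Against Hbb-y-positive cells (43 genes higher, 13 lower), 66 were higher with unspliced UMIs added, 111 at a globin minimum of 1%, 116 at an *Hbb-y* limit of 1% and 23 at 0.25%. At a globin minimum of 5%, which left 479 members, 0 were higher and 52 lower. Against tdTom+ cells (522 higher, 240 lower), that minimum left 19 tdTom+ cells and 243 higher, leaving out called doublets gave 293 higher, and a matched share as well gave 204. Without called doublets and cardiac-led cells 13 were higher and 21 lower against Hbb-y-positive cells, and 260 were higher against tdTom+ cells, or 138 at matched share. The cause of these shifts was not tested. By construction, fewer UMIs after thinning to 5000 per cell gave 5 higher and 1 lower against Hbb-y-positive and 181 and 98 against tdTom+ cells, a minimum of 30 UMIs gave 190 and 35, and 1067 and 404, and a fold of 1.5 gave 300 and 69. With free RNA subtracted, 273 were higher and 56 lower against Hbb-y-positive, 517 lower against tdTom+ and 1270 higher against other tdTom- cells. These subtracted values rest on a profile from cells with neural markers, which may hold more than free RNA.

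The log2 difference of summed MURK genes between early and Hbb-y-positive cells (-0.31) was -0.35 at a globin minimum of 1%, -0.14 at 5%, -0.33 and -0.28 at *Hbb-y* limits of 1% and 0.25%, -0.30 without called doublets and -0.29 after thinning. Against tdTom+ cells (0.60) it was 0.66, 0.55, 0.62, 0.58, 0.68 and 0.62 in the same order, 0.20 at matched share and 0.29 with called doublets left out as well. With the cardiac-led cells left out too it was -0.27 against Hbb-y-positive cells, and 0.71 against tdTom+ cells or 0.36 at matched share. Unspliced shares were 4.14% in tdTom+ cells at the minimum of 5%, 5.89% in Hbb-y-positive and 4.26% in tdTom+ cells after thinning, and 6.39% in early cells at matched share or 6.14% without called doublets too and 6.11% without cardiac-led cells. Without *Slc25a21* they were 4.33% in early, 4.16% in Hbb-y-positive and 4.19% in tdTom+ cells. The ratio of *Hba-x* to *Hbb-bh1* was 1.75 in early and 0.704 in tdTom+ cells without called doublets, 1.52 and 0.650 at matched share, and 1.27 and 0.638 with both. Leaving out the cardiac-led cells gave 1.75 and 0.704 over the gate, and 1.19 and 0.638 at matched share. Genes lower in the high tertile numbered 108 in place of 433 without called doublets and 38 without cardiac-led cells too, and genes higher 22 and 19 in place of 32. Sub-clusters numbered 10 at a resolution of 1 and 7 without called doublets, in place of 4. Matched share, fold of 1.5, leaving out *Slc25a21* or the cardiac-led cells and the doublet runs of ratio, tertiles and sub-clusters were chosen after seeing the data.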
